A study of Drosophila melanogaster with 9 samples.

Results

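Transcripts of Drosophila cells sorted through an apterous muscle reporter (ap_GFP) were set against those of cells sorted through a twist-driven actin reporter (twi_actin_GFP), across all genes of the array and with attention to functions other than myoblast fusion. The arrays were chosen by their titles: 3 are titled for the apterous reporter and 3 for the twist reporter, so that 6 of the 9 arrays of the series were compared, each with 16377 probe sets. In the ap_GFP embryos an enhancer of apterous (ap) that is active in muscle drove GFP, and ap encodes a LIM-homeodomain factor of some body wall muscles. The slou_RFP embryos, whose 3 arrays entered the estimate of the spread, expressed RFP from the muscle enhancer of slouch (slou), which encodes a homeodomain factor of another muscle subset. In the twi_actin_GFP embryos the promoter of twist (twi), the bHLH gene that sets up the mesoderm, drove a fusion of actin and GFP. All embryos were laid over 2 h, aged for a further 8 h at 25 °C and taken at stage 13, then dissociated and sorted, with an independent sort for every array. Per the labels, resorting found 74% of the ap_GFP, 87% of the slou_RFP and 95% of the twi_actin_GFP cells to be fluorescent.

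At this stage the myoblasts of the body wall are fusing into multinucleate fibres. A founder cell expresses identity factors such as Ap or Slou, which give a muscle its size, position and attachment, and fusion-competent myoblasts join it. The genes of the contractile apparatus, of calcium release and of the neuromuscular synapse come on as the fibres form. A reporter fluoresces in cells in which its enhancer is or was active. The twist promoter is active in the early mesoderm, which gives rise to visceral muscle, heart, fat body and hemocytes besides the body wall muscles.

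The deposited values are log2 signals of the robust multi-array average (RMA), and every difference below is the mean on ap_GFP minus the mean on twi_actin_GFP on that scale, ± its standard error, with n = 3 arrays a group. Adjusted p-values are those of limma with Benjamini-Hochberg adjustment over all probe sets, and a gene is called, or said to have risen or fallen, at an adjusted p below 0.05. A gene was represented by its brightest probe set, which gave 10563 named genes. The number of arrays limits the precision: the median standard error of a difference was 0.144. Array medians lay between 4.47 and 4.61, and these values carry no call of presence, which makes a decrease to a mean below 4.47 on ap_GFP a lower bound. In sorted bulk cells fewer cells of a type and less RNA per cell cannot be told apart.

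The ap_GFP replicate 3 array stood apart from its group. Its deviations from the group means correlated with those of slou_RFP replicate 2 (r = 0.668 across probe sets, which are not independent), and limma's array weights were 0.41 and 0.11 for these arrays. Counts are therefore given also without both of them, a setting chosen with earlier results of these data known.

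The genes that define the sorted cells differed as follows. Transcripts of ap stood at 8.70, 8.45 and 9.76 on ap_GFP and at 7.18, 7.04 and 7.01 on twi_actin_GFP, a rise of 1.89 ± 0.32 (adjusted p = 0.00299). The groups do not overlap, and the highest value is that of ap_GFP replicate 3. Transcripts of slou, whose enhancer was not used for ap_GFP, rose by 2.57 ± 0.29, and those of twi rose by 2.32 ± 0.21 although its promoter marks the twi_actin_GFP cells. The 10 markers of somatic muscle were ap, slou, Poxm, lms, TpnC41C, sls and the fusion genes kirre, rols, sns and lmd. Of these 8 rose and 0 fell, and their summed linear signal was 12903 to 14624 on ap_GFP against 3239 to 3715 on twi_actin_GFP. This count takes in ap, whose enhancer sorted the cells, and slou, so it is not independent of the values above.

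Markers of 8 of the 12 other cell types looked at were lower on ap_GFP, and those of neurons, tendon, germ cells and salivary gland were not. The fat body markers apolpp, Lsd-1 and svp all fell, and their summed signal was 949 to 1522 on ap_GFP against 14119 to 15375 on twi_actin_GFP. All 5 measured markers of hemocytes and crystal cells fell, with sums of 1227 to 1869 on ap_GFP against 20242 to 28765 on twi_actin_GFP. The 4 gut markers fell too, with sums of 288 to 473 against 3386 to 5518, as did 3 of 3 for trachea (565 to 809 against 4877 to 5967) and 4 of 4 for glia (1143 to 1399 against 1889 to 2126). For visceral mesoderm 3 of 4 fell (197 to 270 against 2488 to 2748), for heart 2 of 3 measured (126 to 149 against 801 to 954) and for epidermis 2 of 3 (172 to 238 against 1135 to 1453). Below the array medians on ap_GFP and on twi_actin_GFP alike were jeb of the visceral list, Ih of the heart list and ple of the epidermal list. Of the 4 measured neuron markers, elav, nSyb, brp and CadN, 2 were higher and none lower (2946 to 3814 on ap_GFP against 1683 to 1942 on twi_actin_GFP). CadN, which is also a gene of mesoderm, was 1 of these 2 and enters the sums. Of the tendon markers sr and tx 1 rose (1196 to 1606 against 485 to 624). The only measured germ cell marker, vas, rose at a low signal (22.5 to 29.8 on ap_GFP against 13.4 to 18.1 on twi_actin_GFP), and neither of the 2 measured salivary gland markers was called (136 to 208 against 101 to 151). The longer lists for neurons, heart, germ cells and salivary gland were more mixed than these markers. Of 35 neuron genes 5 were higher and 8 lower (14.3% and 22.9%, median -0.04), and of 21 heart and pericardial genes 5 were higher and 8 lower (23.8% and 38.1%, median -0.08), against 10.9% higher and 16.3% lower over all genes. Of 23 germ cell genes 5 were higher and 5 lower (21.7% each), and of 17 salivary gland genes 1 was higher and 5 lower (5.88% and 29.4%). The part of these cell types in the gene differences below was not tested.

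Over all genes, 1150 were higher on ap_GFP, which is 10.9% of the 10563, and 1717 were lower, which is 16.3%. In probe sets these were 1601 (9.78%) and 1992 (12.2%). The submitters' threshold, which asks for a 1.7-fold change and an unadjusted p below 0.05, passed 5.61% of genes as higher and 12.8% as lower (4.68% and 9.48% of probe sets). Decreases were the larger ones. Among called genes 368 fell by 4-fold or more and 67 rose by as much, and the median called fold was 2.20 for decreases and 1.62 for increases. Of the 2867 called genes 948 lost the call when at least 1 of the 6 arrays was left out. The median difference over all genes was 0.08, and 59.9% of genes lay above 0. Without ap_GFP replicate 3 and slou_RFP replicate 2 the balance was even, with 21.6% of genes higher and 21.8% lower. Counts of a list without these 2 divergent arrays are to be read against these shares, not against 10.9% and 16.3%. Among the 3640 genes with means below the array medians in both groups, 3.3% were higher and 2.36% lower, while among the 6299 genes above the medians in both, 15.3% were higher and 21.7% lower. Between ap_GFP and slou_RFP limma called 0 probe sets of either direction, with 430 at an unadjusted p below 0.05 and 11 past the submitters' threshold. Nothing below is therefore shown to be particular to the apterous reporter as against the slouch reporter.

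**Figure D1:**
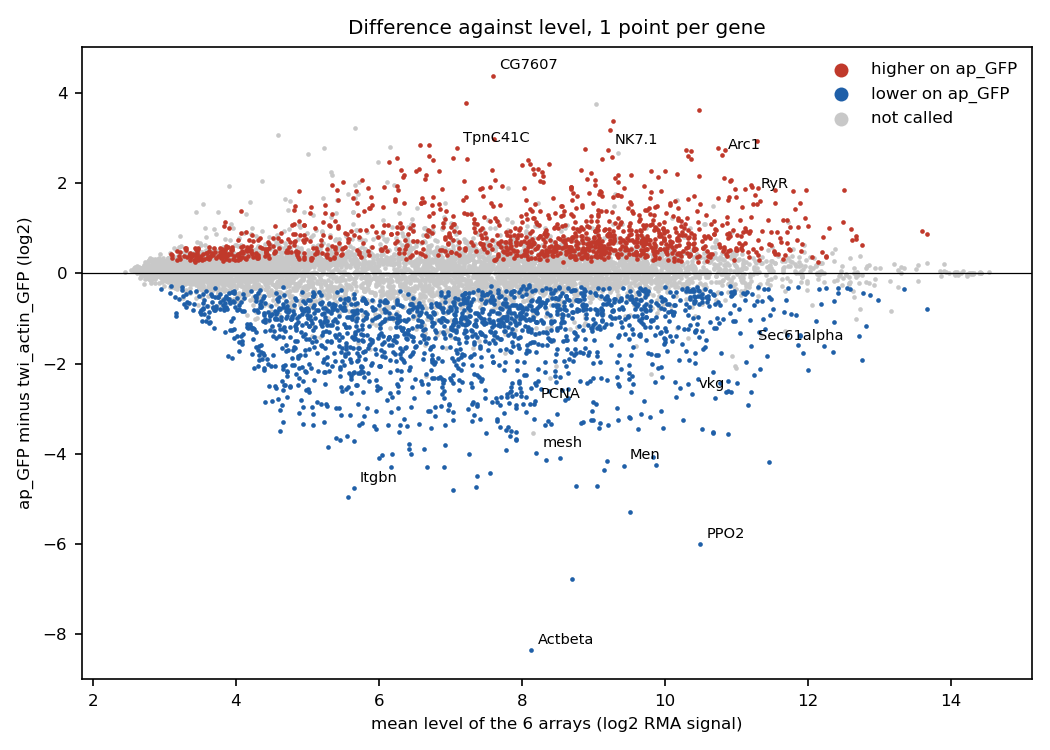
Each point is 1 gene, with its mean log2 RMA signal over the 6 arrays on the horizontal axis and the difference of ap_GFP minus twi_actin_GFP on the vertical axis; colours mark genes called higher or lower by limma. Decreases reach -8.35 (Actbeta) while the largest increase is 4.38 (CG7607), and few genes at the dim end are called.

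Grouped by function, increases gathered in the excitation and calcium machinery of muscle, the cytosolic chaperonin, sugar use, Polycomb and Trithorax genes and the Wnt pathway. Decreases gathered in the secretory pathway, DNA replication, septate junctions, the matrix, the joint list of citric acid cycle and pyruvate genes, and lipid metabolism. These shares describe the lists and were not tested against other genes.

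**Figure D2:**
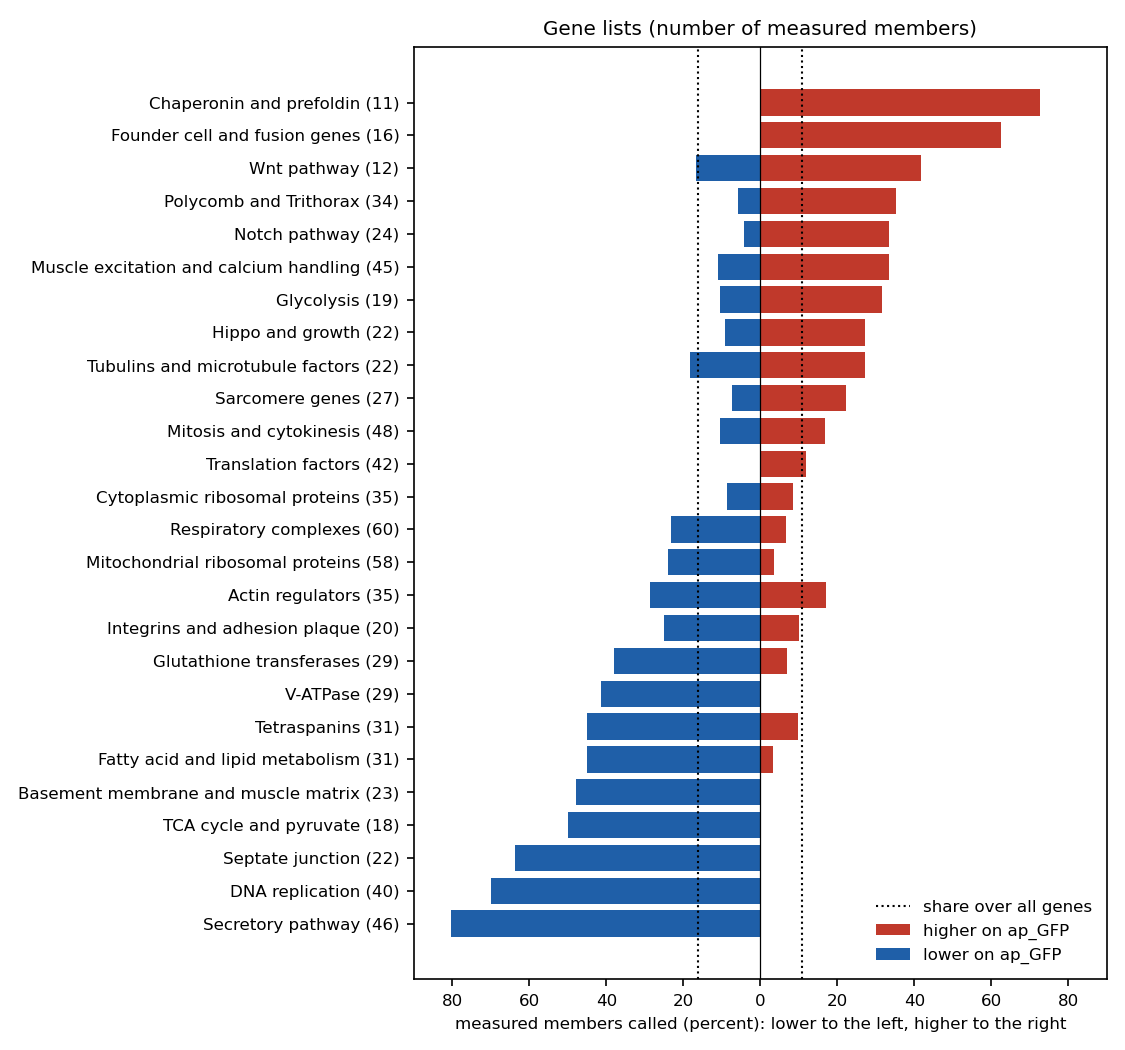
Bars give the percent of the measured members of each gene list called higher on ap_GFP (to the right) or lower on ap_GFP (to the left) than on twi_actin_GFP, with the number measured in brackets; dotted lines mark the shares over all genes, 10.9% higher and 16.3% lower. The chaperonin list has the longest bar to the right (72.7%) and the secretory pathway the longest to the left (80.4%).

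Genes that make a muscle excitable and able to release calcium were higher on ap_GFP more often than lower. Of 45 measured members of this list 15 rose and 5 fell (33.3% and 11.1%), with a median of 0.25, and 20 rose and 6 fell without the divergent arrays. The ryanodine receptor gene RyR, the calcium release channel of the sarcoplasmic reticulum, stood at 12.15, 12.14 and 12.08 on ap_GFP and at 10.52, 10.47 and 10.16 on twi_actin_GFP. It rose by 1.74 ± 0.11 (adjusted p = 1.4e-05), with ap_GFP arrays that differ by less than 0.1. SERCA, the pump that returns calcium to the reticulum, rose by 0.92 ± 0.10 (adjusted p = 0.000282). The troponin C gene TpnC41C, whose product senses calcium on the thin filament, stood at 8.15, 8.36 and 8.90 on ap_GFP and at 6.00, 5.63 and 5.48 on twi_actin_GFP, a rise of 2.77 ± 0.21 (adjusted p = 3.76e-05).

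The pore of the mitochondrial calcium uniporter and its partner rose together. MCU, the pore subunit, stood at 8.75, 8.59 and 7.04 on ap_GFP and at 5.56, 5.14 and 5.13 on twi_actin_GFP, a rise of 2.85 ± 0.48 (adjusted p = 0.0028). The ap_GFP replicate 3 array was the low one of its group here. EMRE, the small membrane subunit that the animal channel needs, rose by 0.84 ± 0.12 (adjusted p = 0.0014), with all 3 ap_GFP arrays between 10.61 and 10.75 and all 3 twi_actin_GFP arrays between 9.76 and 9.89.

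Genes of potassium channels and transmitter receptors split by gene. The Shaker potassium channel gene Sh rose by 1.62 ± 0.17 (adjusted p = 0.00024), while the related channel genes Shal and Shaw fell by 2.85 and 1.34 (adjusted p = 1.92e-06 and 0.000281). Shal stood at 5.84, 6.04 and 5.78 on ap_GFP and at 8.57, 8.85 and 8.77 on twi_actin_GFP. Among the 4 measured subunits of the muscle glutamate receptor, which receives the motor neuron's transmitter in flies, 3 rose. GluRIIB stood at 9.98, 10.13 and 9.88 on ap_GFP and at 7.99, 8.33 and 8.22 on twi_actin_GFP (1.81 ± 0.24, adjusted p = 0.000763). GluRIIE rose by 1.22 ± 0.20 and GluRIID by 0.79 ± 0.18, the GluRIID call ending without twi_actin_GFP replicate 1 (adjusted p = 0.056). GluRIIA was at 6.92, 6.83 and 6.66 on ap_GFP and at 6.52, 7.07 and 6.95 on twi_actin_GFP, with overlapping groups and a difference of -0.04 (adjusted p = 0.857). The acetylcholine receptor gene nAChRbeta1, a subunit of the receptor used at central synapses of the fly, fell by 2.65 (adjusted p = 0.0004). The short neuron marker list and the longer neuron list went different ways (given above), and the part of neurons in these channel genes was not tested.

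Structural genes of the sarcomere did not move as a block. Of 27 measured, 6 rose and 2 fell (22.2% and 7.41%), with a median of 0.03 whose sign changed under other settings. The actin gene Act87E stood at 12.33, 12.20 and 11.87 on ap_GFP and at 10.67, 10.48 and 10.44 on twi_actin_GFP, a rise of 1.61 ± 0.24 (adjusted p = 0.00137). The titin-like sls rose by 1.07 ± 0.18, the kinase Strn-Mlck by 0.85 ± 0.12 and Msp300, a giant nesprin that anchors nuclei, by 0.65 ± 0.13. Mlc-c, the cytoplasmic myosin light chain, fell by 0.62. Without the divergent arrays 8 rose and 10 fell. Mlp60A, a LIM protein of the Z-disc, and Mp20, a calponin-like muscle protein, had differences of -1.44 and -1.20 that did not pass (adjusted p = 0.075 and 0.239) and passed without those arrays (adjusted p = 0.0026 and 0.00058). For Mp20 the values were 9.03, 8.97 and 10.70 on ap_GFP, against 10.19, 11.04 and 11.07 on twi_actin_GFP, so that ap_GFP replicate 3 alone reached the range of the twi_actin_GFP arrays.

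**Figure D3:**
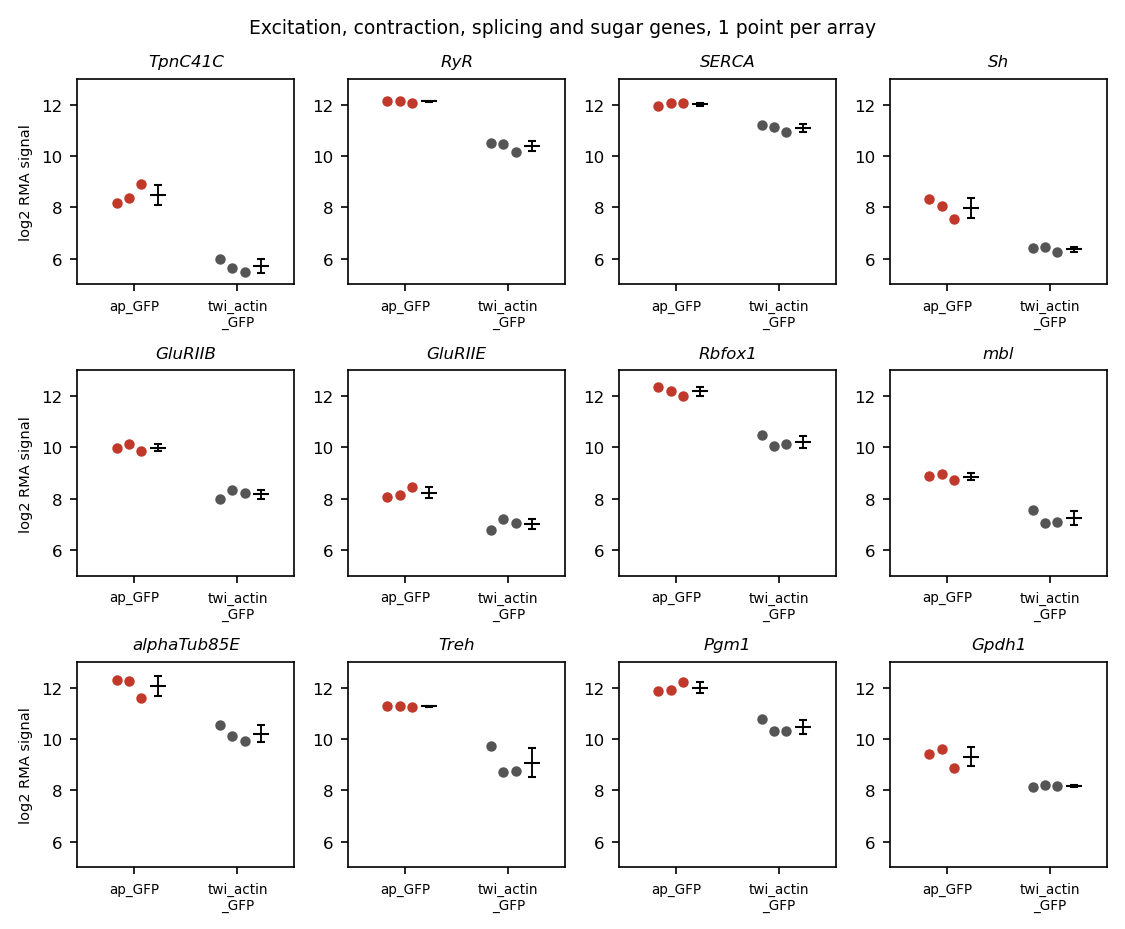
Points are single arrays and bars the mean ± SD of 3 arrays, on the log2 RMA scale, for 12 genes of excitation, contraction, splicing, microtubules and sugar use. In every panel all 3 ap_GFP arrays lie above all 3 twi_actin_GFP arrays.

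Regulators of muscle splicing rose beside them. Rbfox1, an RNA-binding splicing factor, stood at 12.37, 12.20 and 12.00 on ap_GFP and at 10.50, 10.05 and 10.12 on twi_actin_GFP, a rise of 1.97 ± 0.26 (adjusted p = 0.000772). Muscleblind (mbl), the splicing factor needed for terminal muscle differentiation, rose by 1.63 ± 0.17 (adjusted p = 0.000174). In the wider list of splicing and RNA-binding genes 10 of 43 rose (23.3%) and 6 fell, with a median of 0.07. Increases included mei-P26, a TRIM-NHL protein (0.93 ± 0.11), and loqs, a double-stranded RNA-binding partner of Dicer (0.79 ± 0.11). Decreases included pasilla (ps), the fly Nova homologue (-1.36, adjusted p = 0.0321, and 0.0799 to 0.102 when any compared array but ap_GFP replicate 3 was left out), and SmD1, a core spliceosomal protein (-0.66, adjusted p = 0.00329).

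Among microtubule genes 6 of 22 rose and 4 fell (27.3% and 18.2%, median 0.25). The alpha-tubulin gene alphaTub85E stood at 12.29, 12.26 and 11.60 on ap_GFP and at 10.56, 10.13 and 9.90 on twi_actin_GFP (1.86 ± 0.29, adjusted p = 0.00184). Map205, a microtubule-associated protein, rose by 2.04 ± 0.29 (adjusted p = 0.0011) and tacc, a centrosomal microtubule factor, by 0.83 ± 0.13. Stathmin (stai), which sequesters tubulin dimers, went the other way, with 5.15, 5.74 and 6.40 on ap_GFP and 7.56, 7.83 and 7.91 on twi_actin_GFP (4.01-fold lower, adjusted p = 0.000837). The spectraplakin gene shot fell by 0.69 and betaTub97EF by 0.80.

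The chaperonin CCT and prefoldin, which fold actin and tubulin, rose by small and even amounts. Of 11 measured members 8 rose and 0 fell (72.7%), with a median of 0.48. CCT8 stood at 11.23, 11.28 and 11.27 on ap_GFP and at 10.64, 10.85 and 10.70 on twi_actin_GFP (0.53 ± 0.09, adjusted p = 0.00238). All 8 CCT subunits had positive differences, between 0.21 and 0.53, and 6 of them passed. Pfdn4 and Pfdn6 rose by 0.59 ± 0.10 and 0.52 ± 0.09. These are changes of 1.5-fold at most.

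Some genes that free and burn sugar were higher as well. Of 19 measured 6 rose and 2 fell (31.6% and 10.5%, median 0.46). Without the divergent arrays 8 rose and 4 fell, with a median of 0.28, and without ap_GFP replicate 3 alone 4 rose and 2 fell. The list's median deviation from the 9-array mean of each gene was 0.32 on ap_GFP replicate 3. It was 0.10 and 0.01 on ap_GFP replicates 1 and 2. Trehalase (Treh), which splits the blood sugar of insects, stood at 11.27, 11.29 and 11.25 on ap_GFP and at 9.74, 8.73 and 8.76 on twi_actin_GFP, a rise of 2.19 ± 0.24 (adjusted p = 0.00027). The spread lies with twi_actin_GFP replicate 1, the highest array of its group. Phosphoglucomutase (Pgm1), which links glycogen to glycolysis, rose by 1.53 ± 0.15 (adjusted p = 0.000164) and Gpdh1, the glycerol-3-phosphate dehydrogenase of the shuttle used by fly muscle, by 1.14 ± 0.17 (adjusted p = 0.00141). Enolase (Eno) rose by 0.84 ± 0.09 and phosphofructokinase (Pfk) by 0.78 ± 0.21, but the Pfk call ended when any of the 6 arrays was left out (adjusted p = 0.0523 to 0.0909). The sugar transporter gene Glut1 fell by 1.24 to a mean below the array medians, a lower bound.

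Patterning factors split in both directions. In the list of segmentation and dorsoventral factors 7 of 29 rose and 6 fell (24.1% and 20.7%), with 11 and 6 without the divergent arrays. The zinc finger gene hunchback (hb) stood at 8.15, 8.03 and 8.77 on ap_GFP and at 5.57, 5.69 and 6.05 on twi_actin_GFP, a rise of 2.55 ± 0.25 (adjusted p = 0.000136). The Pax gene gooseberry (gsb) and its neighbour gsb-n rose by 2.13 ± 0.25 and 2.26 ± 0.29 (adjusted p = 0.000361 and 0.000632). Hairy (hry), a bHLH repressor, stood at 12.74, 12.71 and 12.65 on ap_GFP against 11.36, 10.49 and 10.80 on twi_actin_GFP (1.81 ± 0.23). The zinc finger genes btd and tsh rose by 1.56 ± 0.21 and 0.67 ± 0.11. In the other direction odd-skipped (odd) stood at 6.26, 6.53 and 5.86 on ap_GFP and at 8.84, 9.13 and 9.25 on twi_actin_GFP (-2.85 ± 0.24, adjusted p = 6.79e-05). Its relative drm, which acts in the gut, fell by 1.61 (adjusted p = 0.000164). The pair-rule gene opa, needed for visceral mesoderm of the midgut, had a difference of -2.44 (adjusted p = 0.000186). Gut and visceral markers fell in the same comparison (sums above).

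Only 4 Hox or cofactor genes were measured, and 1 was called. Without the divergent arrays all 4 were called, 2 higher and 2 lower. Antennapedia (Antp), a thoracic Hox gene, stood at 8.93, 8.93 and 9.48 on ap_GFP and at 8.31, 8.29 and 8.33 on twi_actin_GFP (0.81 ± 0.15, adjusted p = 0.00436). Sex combs reduced (Scr) had a difference of -1.04 that did not pass (adjusted p = 0.252), with ap_GFP arrays at 7.04, 7.13 and 5.90 against 7.63, 7.85 and 7.70 on twi_actin_GFP. Deformed (Dfd) overlapped between groups, and proboscipedia (pb) lay below the array medians in both.

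Muscle identity factors, which are expressed in different subsets, also went both ways, with 4 of 22 higher and 6 lower (18.2% and 27.3%, against 10.9% and 16.3% over all genes). Beside ap and slou, the Pax gene Poxm rose (1.07 ± 0.12, adjusted p = 0.000244). NK7.1, a homeodomain gene outside that list, stood at 10.75, 10.62 and 10.32 on ap_GFP and at 7.79, 7.85 and 7.89 on twi_actin_GFP, a rise of 2.72 ± 0.25 (adjusted p = 9.05e-05). The LIM-homeodomain gene Lim3, known in motor neurons, fell to 4.58, 5.13 and 4.58 on ap_GFP, against 7.29, 8.08 and 7.90 on twi_actin_GFP (-2.99 ± 0.24, adjusted p = 5.13e-05). The related tailup (tup), a factor of dorsal muscles and heart, fell by 1.96 (adjusted p = 1.81e-05). The gene eya, whose product is a coactivator with phosphatase activity, fell by 1.52 and the Iroquois gene mirr by 1.41 (adjusted p = 0.00387 and 0.00143).

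Several factors of other mesodermal and blood fates fell. Hand, a bHLH factor of heart and visceral muscle, stood at 6.75, 7.33 and 7.25 on ap_GFP and at 11.18, 11.30 and 11.33 on twi_actin_GFP, 17.9-fold lower (adjusted p = 3.8e-06). The nuclear receptor gene svp fell by 2.13 (adjusted p = 0.000141). Lozenge (lz), the Runx factor of crystal cells, was at 2.88, 2.96 and 3.10 on ap_GFP and at 6.33, 5.12 and 6.03 on twi_actin_GFP, a lower bound of 2.85 log2 units for its decrease. Doublesex (dsx), the sex determination factor, also fell to below the array medians (-2.50, adjusted p = 3.89e-05).

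**Figure D4:**
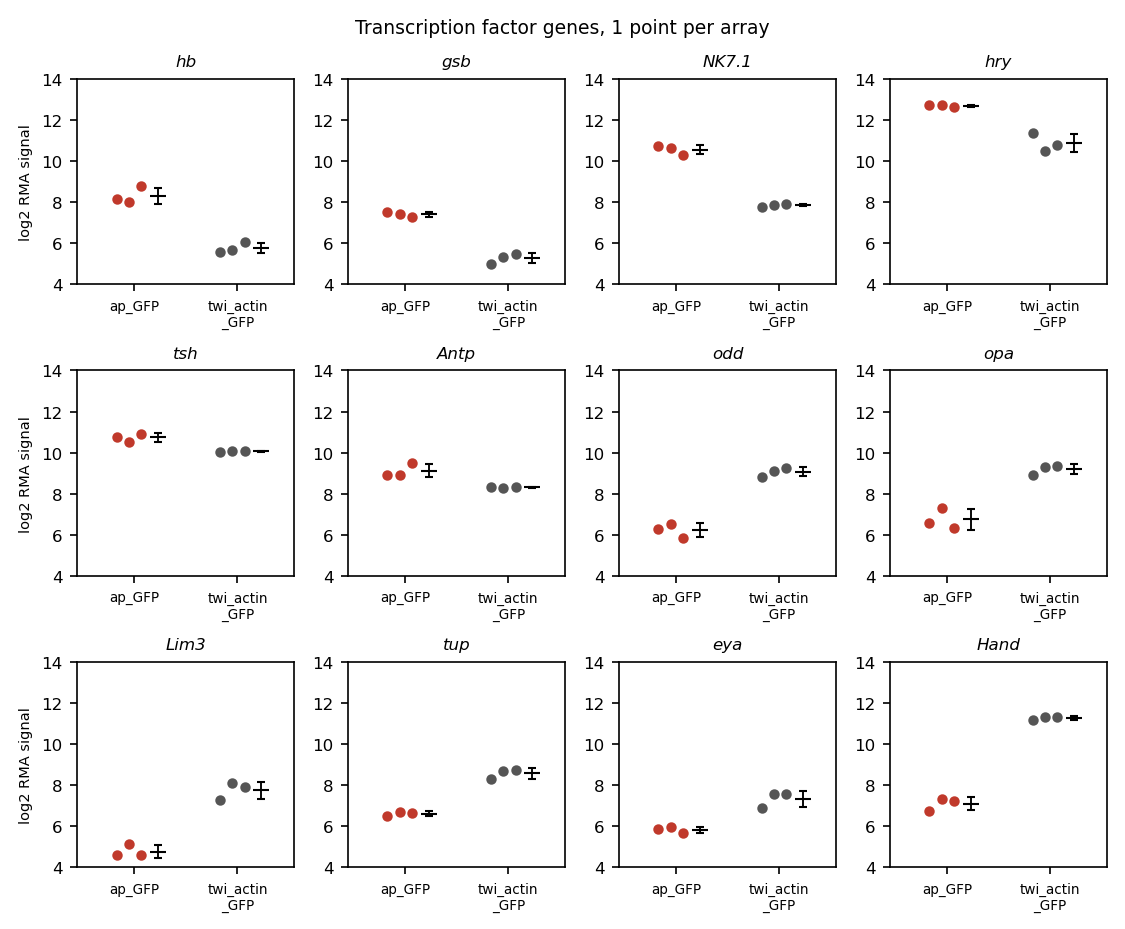
Points are single arrays and bars the mean ± SD of 3 arrays, on the log2 RMA scale, for 12 transcription factor genes. The groups do not overlap in any panel: ap_GFP is above twi_actin_GFP for hb, gsb, NK7.1, hry, tsh and Antp and below it for odd, opa, Lim3, tup, eya and Hand.

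In the TGF-beta pathway the ligands parted. Activin-beta (Actbeta) had the largest decrease of all named genes, with 3.74, 3.85 and 4.27 on ap_GFP and 12.54, 12.18 and 12.19 on twi_actin_GFP (-8.35 ± 0.23, adjusted p = 3.45e-07). The ap_GFP values are below the array medians, so that the 327-fold decrease is a lower bound. The BMP ligand gene dpp, which instructs dorsal mesoderm, stood at 6.38, 6.75 and 5.62 on ap_GFP and at 8.38, 8.54 and 8.59 on twi_actin_GFP (-2.25 ± 0.47, adjusted p = 0.00872), and the activin-like daw fell by 1.80. The ligand genes mav and gbb rose by 0.89 ± 0.15 and 0.54 ± 0.10, as did the receptor genes put (0.59 ± 0.10) and sax (0.49 ± 0.08). Tolloid (tld), a protease that releases Dpp from its inhibitor, rose by 1.89 ± 0.19 (adjusted p = 0.000173). In all 5 of 25 rose and 5 fell, both larger shares than the 10.9% and 16.3% over all genes, with a median of 0.17.

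Wnt pathway genes that restrain the signal were among those that rose. Of 12 measured, 5 rose and 2 fell (41.7% and 16.7%). Axin (Axn), the scaffold of the complex that destroys beta-catenin, stood at 10.19, 10.10 and 10.43 on ap_GFP and at 8.80, 8.83 and 8.92 on twi_actin_GFP (1.39 ± 0.12, adjusted p = 8.4e-05). The feedback inhibitor nkd rose by 0.95 ± 0.14 and the secreted Wnt-deactivating enzyme Notum by 0.72 ± 0.21 (adjusted p = 0.0428 for Notum, and 0.0631 to 0.15 when any of the 6 arrays was left out). The other increases were those of the kinase gene gish (1.26 ± 0.18, adjusted p = 0.0013) and of doughnut (dnt), a Ryk-type Wnt receptor (0.82 ± 0.12). Drl-2, a relative of dnt, fell by 1.00 to a mean below the array medians.

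The Hedgehog list had 4 of 15 higher and 3 lower, both larger shares than the 10.9% and 16.3% over all genes. Rasp, the acyltransferase that lipidates Hedgehog, rose by 1.70 ± 0.16 (adjusted p = 0.000111) and disp, which releases the lipidated ligand, by 1.15 ± 0.24 (adjusted p = 0.0087). The effector gene ci rose by 0.87 ± 0.21 and the kinesin-like cos by 0.51 ± 0.10, the ci call ending without ap_GFP replicate 1 or 2 or twi_actin_GFP replicate 2 or 3 (adjusted p = 0.0593 to 0.0789). The ligand gene hh itself was at 4.40, 4.43 and 5.02 on ap_GFP and at 5.19, 5.24 and 5.81 on twi_actin_GFP (-0.80 ± 0.21, adjusted p = 0.0268, and 0.0876 to 0.0985 without ap_GFP replicate 1 or 2 or twi_actin_GFP replicate 3). The heparan sulphate synthesis gene botv, needed for spread of the ligand, fell by 0.94 (adjusted p = 0.00378).

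Among receptor tyrosine kinase genes 3 receptor genes fell and several intracellular parts rose. Egfr stood at 5.33, 5.39 and 5.42 on ap_GFP and at 7.33, 7.21 and 7.35 on twi_actin_GFP (-1.92 ± 0.12, adjusted p = 1.5e-05). Ret, a lower bound, fell by 1.80 and Pvr, the receptor of hemocytes, by 1.75 (adjusted p = 0.0021 and 0.00346). The FGF ligand gene pyr, which acts on spreading mesoderm, fell by 1.47 and the Pvr ligand gene Pvf1 by 1.38. Star (S), which carries the Egfr ligand through the secretory route, rose 2.83-fold, the repressor gene aop by 1.18 ± 0.16 log2 units and the adaptor genes drk and chico by 0.63 ± 0.10 and 0.60 ± 0.08. Of 33 measured, 8 rose and 6 fell (24.2% and 18.2%).

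In the Hippo and growth list 6 of 22 rose and 2 fell (27.3% and 9.09%), and 11 and 3 without the divergent arrays. The kinase gene wts, which restrains the growth coactivator Yki, stood at 10.21, 10.11 and 10.17 on ap_GFP and at 9.40, 9.24 and 9.35 on twi_actin_GFP (0.83 ± 0.10, adjusted p = 0.000439). Its scaffold sav rose by 0.78 ± 0.14, the upstream regulator Mer by 0.69 ± 0.11 and yki by 0.53 ± 0.08. All 8 measured members of the kinase module had positive differences, from 0.22 to 0.83, and 4 passed. The forkhead gene foxo of the insulin pathway fell by 1.04 (adjusted p = 0.00272).

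Of 27 ecdysone pathway genes 1 was higher and 6 were lower (3.70% and 22.2%, against 10.9% and 16.3% over all genes). Without the divergent arrays 4 were higher and 12 lower, a setting in which 21.6% of all genes were higher and 21.8% lower. Cyp18a1, which inactivates the hormone, fell to 4.32, 4.38 and 4.57 on ap_GFP, against 6.17, 6.47 and 6.87 on twi_actin_GFP (-2.08 ± 0.22, adjusted p = 0.000191). Its mean on ap_GFP is below the array medians, which makes this decrease a lower bound. The ecdysone-inducible genes ImpE1 and ImpE2 fell by 1.94 and 1.93 and the receptor gene EcR by 0.45 (adjusted p = 0.0017, 0.00922 and 0.00926). Of 11 JAK/STAT genes 2 rose (18.2%), among them Socs16D by 0.48 ± 0.10, and none fell, while 4 rose and 4 fell without the divergent arrays. The receptor-like gene et shows how far ap_GFP replicate 3 could depart: it was at 8.18, 8.15 and 5.44 on ap_GFP and at 6.09, 5.58 and 5.74 on twi_actin_GFP (adjusted p = 0.33, and 1e-05 without the divergent arrays).

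Basement membrane and matrix genes were lower, with 0 of 23 higher and 11 lower (47.8%) and a median of -0.83. Without the divergent arrays 2 were higher and 12 lower. The type IV collagen gene vkg stood at 8.99, 9.80 and 8.32 on ap_GFP and at 12.41, 11.08 and 11.66 on twi_actin_GFP (-2.68 ± 0.41, adjusted p = 0.00162). Its partner Col4a1 fell by 2.61 (adjusted p = 0.00206) and the perlecan gene trol by 2.20 (adjusted p = 0.000122). SPARC, which binds collagen IV, fell by 2.20 and the collagen-modifying enzyme genes Plod and PH4alphaEFB by 1.76 and 0.91 (adjusted p = 0.00409, 5.93e-05 and 0.000503). The laminin genes LanB1 and LanB2 did not pass, with differences of -0.19 and -0.30 (adjusted p = 0.373 and 0.136). Collagen IV is made chiefly by hemocytes and fat body in the fly, and the markers of both were lower on ap_GFP (summed signals above), but their part in these values was not tested.

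Of 20 measured genes of integrins and their adhesion plaque 2 rose and 5 fell. The share of decreases was 25.0%, against 16.3% over all genes, and the share of increases lay below the 10.9% over all genes. Without ap_GFP replicate 3 alone 0 rose and 4 fell. Itgbn, the beta subunit of midgut and blood cells, was at 2.79, 3.53 and 3.48 on ap_GFP and at 7.65, 8.19 and 8.23 on twi_actin_GFP, at least 27.0-fold lower (adjusted p = 4.75e-06). The alpha subunit gene scb fell by 0.80, and CAP, a vinculin-binding adaptor, by 2.09 (adjusted p = 7e-06). Muscle attachment uses the beta subunit Mys and the alpha subunit If. Mys had a difference of 0.42 (adjusted p = 0.0878) and If had a difference of -0.08 with overlapping groups (adjusted p = 0.641). The focal adhesion kinase gene Fak and the kindlin gene Fit2 rose by 0.85 ± 0.25 and 0.61 ± 0.16 (adjusted p = 0.0403 and 0.0233). The Fak call ended when any of the 6 arrays was left out (adjusted p = 0.0657 to 0.128) and that of Fit2 without ap_GFP replicate 2 or 3 or twi_actin_GFP replicate 1 or 2 (0.0574 to 0.0764).

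Septate junction genes, whose products seal epithelia, were lower in 14 of 22 cases (63.6%) and higher in none, a median of -0.66. Without the divergent arrays 18 were lower and 2 higher. The largest decreases were those of the smooth septate junction, the type found in the midgut. Its core gene mesh stood at 4.95, 6.31 and 7.35 on ap_GFP and at 9.69, 10.52 and 10.35 on twi_actin_GFP (-3.98 ± 0.95, adjusted p = 0.017). Its partners hoka, Ssk and Tsp2A fell by 3.41, 3.12 and 1.83 (adjusted p = 0.0131, 0.0367 and 0.0437). In mesh, hoka, Ssk and Tsp2A alike ap_GFP replicate 1 was the lowest array of its group and replicate 3 the highest. Their calls depended on single arrays: those of mesh and hoka ended without ap_GFP replicate 1 or twi_actin_GFP replicate 2 or 3 (adjusted p = 0.0513 to 0.0672), that of Ssk without any compared array but ap_GFP replicate 3 (0.0611 to 0.128) and that of Tsp2A without any of the 6 (0.0573 to 0.141). Without both divergent arrays all 4 passed, with adjusted p between 3e-05 and 0.00031. Genes of the pleated junction of ectodermal epithelia and glia fell less: vari by 1.08, Lac by 0.90 and Cont by 0.67 (adjusted p between 0.00115 and 0.00441). Epithelial polarity genes followed, with aPKC (-1.23), crb (-0.97) and Patj (-0.89) lower, and of 25 genes of adherens junctions and polarity 4 rose and 8 fell. N-cadherin (CadN), an adhesion molecule of mesoderm and axons, stood at 10.37, 10.20 and 10.06 on ap_GFP against 8.61, 8.37 and 8.43 on twi_actin_GFP and rose by 1.74 ± 0.20 (adjusted p = 0.000379). Gut, tracheal and epidermal markers fell in the same arrays (sums above), and their part was not tested.

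Tetraspanins, small membrane proteins with 4 transmembrane segments, had 3 of 31 members higher and 14 lower (9.68% and 45.2%), a median of -0.61. Tsp29Fa was at 3.92, 4.06 and 4.58 on ap_GFP and at 8.03, 8.26 and 8.25 on twi_actin_GFP, at least 15.9-fold lower (adjusted p = 2.36e-05). Tsp42El fell by 2.90 and Tsp66E, a lower bound, by 2.63 (adjusted p = 8.15e-06 and 0.000573). Tsp86D and Tsp96F rose by 1.26 ± 0.26 and 0.84 ± 0.13. Guidance and targeting genes split, 5 of 24 rising and 6 falling (20.8% and 25.0%, against 10.9% and 16.3% over all genes). Among them unc-5, a Netrin receptor, was up by 0.88 ± 0.13, robo1, the Slit receptor, up by 0.62 ± 0.08, and Neurotactin (Nrt), an adhesion molecule, down by 1.78 (adjusted p = 6.19e-05).

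Among actin regulators the paralogs of 1 Arp2/3 subunit moved apart. Arpc3A stood at 11.93, 11.96 and 11.61 on ap_GFP and at 10.35, 10.06 and 10.03 on twi_actin_GFP (1.68 ± 0.18, adjusted p = 0.000262). Arpc3B stood at 6.12, 6.97 and 6.48 on ap_GFP and at 9.98, 9.26 and 9.54 on twi_actin_GFP (-3.07 ± 0.29, adjusted p = 0.000109). Coronin (coro), which acts with Arp2/3, and the beta-heavy spectrin gene kst rose by 1.23 ± 0.13 and 1.40 ± 0.14. Gelsolin (Gel), which severs filaments, fell by 2.32 and the formin gene form3 by 1.35 (adjusted p = 4.19e-05 and 0.000185). In the whole list 6 of 35 rose and 10 fell (17.1% and 28.6%).

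The secretory pathway was the list with the largest share of called members. Of 46 measured, 37 fell (80.4%) and 0 rose, with a median of -0.92, and 38 and 0 without the divergent arrays. Sec61alpha, the channel that carries new proteins into the endoplasmic reticulum, stood at 10.33, 10.42 and 10.44 on ap_GFP and at 12.03, 12.00 and 12.02 on twi_actin_GFP (-1.62 ± 0.08, adjusted p = 7e-06). All 3 Sec61 subunits fell, by 1.38 to 1.62. Of the oligosaccharyltransferase, which adds N-glycans, 4 of 5 measured subunits fell, with OstDelta at 9.41, 9.52 and 9.38 on ap_GFP and at 11.19, 11.15 and 11.12 on twi_actin_GFP. For the vesicle coats, 3 of 3 COPII genes and 5 of 6 COPI genes fell. The lumenal chaperone genes Hsc70-3 and Gp93 fell by 1.61 and 1.37 (adjusted p = 1.88e-05 and 3.81e-05), while crc, the fly ATF4 of the stress response, rose by 0.88 ± 0.13 (adjusted p = 0.00141).

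Acidic compartments were lower in part. Of 29 V-ATPase genes 12 fell (41.4%) and 0 rose, and 15 fell and 1 rose without the divergent arrays. VhaAC39-1 fell by 1.20 and the proteolipid Vha16-1 by 1.06 (adjusted p = 0.000837 and 0.000242). Among the lysosomal genes that fell was Mitf, the transcription factor that drives them, at 3.33, 3.65 and 3.35 on ap_GFP and 5.65, 5.96 and 6.17 on twi_actin_GFP (a lower bound of 2.48). The protease gene cathD fell by 1.34 (adjusted p = 0.000614). Genes of autophagy in the same list split: ref(2)P, the cargo adaptor, rose by 1.08 ± 0.19 and Atg2 by 0.94 ± 0.19, while Atg7 fell by 1.09, a call that ended without ap_GFP replicate 1 or twi_actin_GFP replicate 3 (adjusted p = 0.0519 and 0.0527). The list as a whole had 7 of 40 higher and 13 lower (17.5% and 32.5%).

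Genes of the citric acid cycle and around pyruvate, gluconeogenesis included, were taken as 1 list, which had more decreases than increases. Of 18 measured, 9 fell and 0 rose, with a median of -0.65. Malic enzyme (Men) stood at 7.05, 7.40 and 7.44 on ap_GFP and at 11.93, 11.13 and 11.59 on twi_actin_GFP, 19.1-fold lower (adjusted p = 8.14e-06). The phosphoenolpyruvate carboxykinase genes Pepck1 and Pepck2, of gluconeogenesis, fell by 2.25 and 2.60 and pyruvate carboxylase (PCB) by 2.11 (adjusted p = 0.000563, 0.00543 and 0.00253). Pyruvate dehydrogenase kinase (Pdk), which shuts pyruvate out of the citric acid cycle, fell by 2.36 and Mpc1, the mitochondrial pyruvate carrier, by 1.07 (adjusted p = 0.00238 and 7.84e-05).

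Lipid genes fell with them. In the list of fatty acid and lipid metabolism 1 of 31 rose and 14 fell (45.2%), a median of -0.85. The thiolase gene yip2 stood at 7.31, 7.70 and 7.66 on ap_GFP and at 10.58, 10.38 and 10.28 on twi_actin_GFP (-2.86 ± 0.21, adjusted p = 2.88e-05). The lipoprotein genes Apoltp and apolpp fell by 2.75 and 4.17, and Mtp, which loads them with lipid, by 2.54 (adjusted p = 4.47e-06 for Mtp). Npc2a, a sterol carrier, varied within twi_actin_GFP, from 9.60 to 11.52, and stood at 7.05 to 7.91 on ap_GFP (-2.90 ± 0.59). Fat body is the main site of these lipoproteins, and its markers were lower (sums above). Their part was not tested.

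Detoxification families differed in how many members fell. Of 29 glutathione transferases 11 fell and 2 rose (37.9% and 6.90%). GstO3 stood at 5.32, 5.07 and 5.65 on ap_GFP and at 9.35, 9.95 and 9.98 on twi_actin_GFP (-4.41 ± 0.39), while GstD3 stood at 10.38, 10.36 and 10.31 on ap_GFP and at 8.61, 7.91 and 8.22 on twi_actin_GFP (2.10 ± 0.17, adjusted p = 4.59e-05). The GstD genes are close copies of each other, and how far their probes share signal was not tested. Of 70 cytochrome P450 genes 11 fell and 3 rose (15.7% and 4.29%), a share of decreases near the 16.3% over all genes and with a list median of 0.09, and Cyp28a5 fell by 3.89 (adjusted p = 5.87e-05). The crystal cell gene PPO2, for a phenoloxidase of melanization, fell to 6.72, 7.60 and 8.14 on ap_GFP, against 13.72, 13.27 and 13.48 on twi_actin_GFP (64.1-fold), and the clotting gene fon by at least 19.7-fold.

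**Figure D5:**
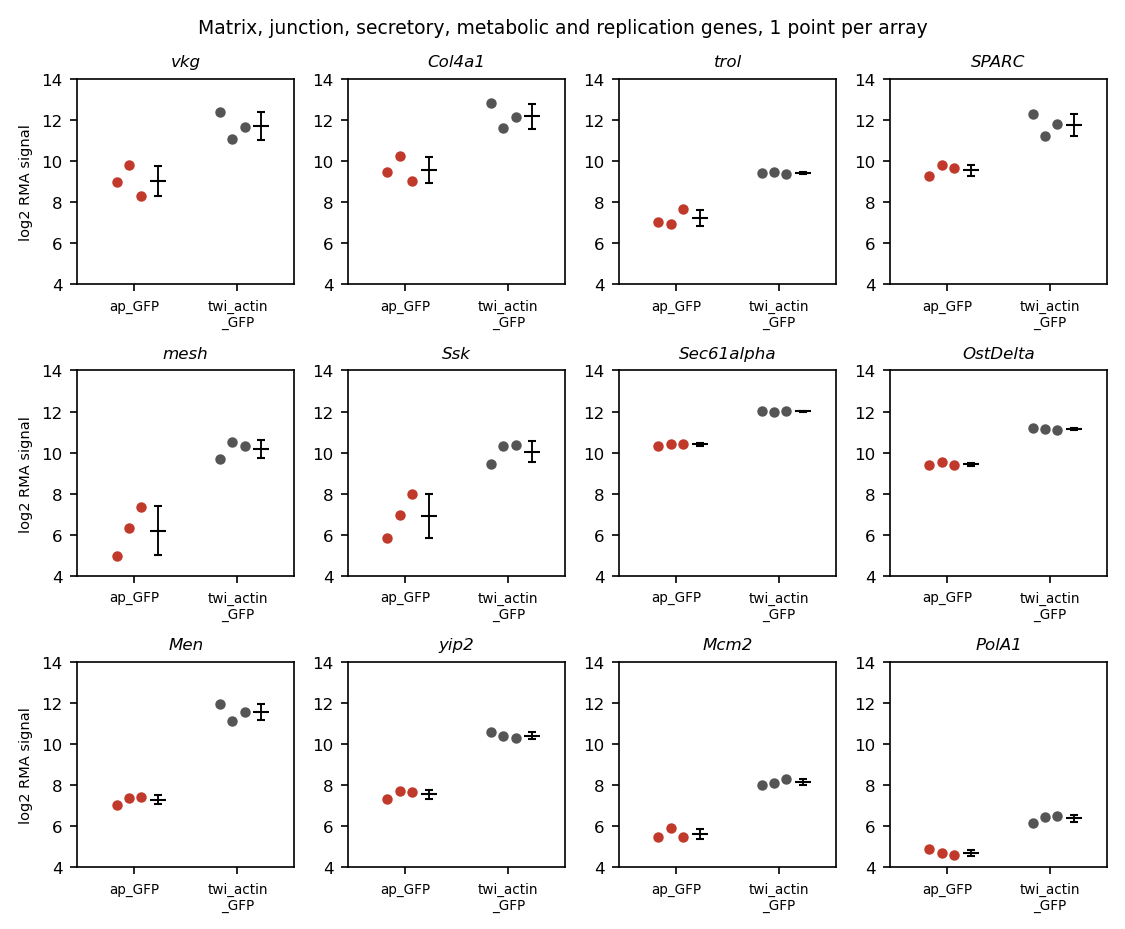
Points are single arrays and bars the mean ± SD of 3 arrays, on the log2 RMA scale, for 12 genes of matrix, junction, secretion, metabolism and replication. All 3 ap_GFP arrays lie below all 3 twi_actin_GFP arrays in every panel, tightly for Sec61alpha and OstDelta and with a wide spread for mesh and Ssk.

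Genes of DNA synthesis and of mitosis went separate ways. Of 40 replication genes 28 fell and 0 rose, with a median of -1.20, and 32 fell and 2 rose without the divergent arrays. Mcm2, a subunit of the replicative helicase, stood at 5.48, 5.91 and 5.49 on ap_GFP and at 8.01, 8.11 and 8.29 on twi_actin_GFP (-2.51 ± 0.21, adjusted p = 5.35e-05). All 4 subunits of DNA polymerase alpha and primase fell, by 1.18 to 2.59, and 4 of 5 measured Mcm2-7 genes. The licensing gene dup (Cdt1) fell by 2.30 and the GINS gene Psf2 by 2.20 (adjusted p = 1.8e-05 and 4.19e-05).

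Mitosis and cytokinesis genes showed no such decrease, with 8 of 48 higher and 5 lower (16.7% and 10.4%) and a median of 0.16. The kinetochore gene Nuf2 rose by 1.11 ± 0.27 and the spindle kinesin gene Klp61F by 1.03 ± 0.25 (adjusted p = 0.0169 and 0.0178). Nuf2 stood at 7.35, 7.63 and 7.38 on ap_GFP and at 6.23, 6.33 and 6.46 on twi_actin_GFP. The Nuf2 call ended without ap_GFP replicate 2 or twi_actin_GFP replicate 1 or 2 (adjusted p = 0.0569 to 0.0606), and that of Klp61F without any compared array but ap_GFP replicate 3 (0.0513 to 0.0657). The checkpoint kinase gene grp fell by 0.85 (adjusted p = 0.00111). Without the divergent arrays 20 mitosis genes rose and 6 fell, a setting in which 21.6% of all genes were higher and 21.8% lower. The difference between the replication and mitosis lists was not tested.

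Chromatin regulators of the Polycomb and Trithorax groups, which keep developmental genes off or on, had 12 of 34 measured genes higher and 2 lower (35.3% and 5.88%), or 18 and 2 without the divergent arrays. Psc, a Polycomb complex subunit, stood at 9.88, 9.58 and 9.41 on ap_GFP and at 8.53, 8.42 and 8.44 on twi_actin_GFP (1.16 ± 0.15, adjusted p = 0.000604). The histone demethylase gene Utx rose by 0.95 ± 0.21, the methyltransferase gene trx by 0.74 ± 0.12 and Sfmbt, a Polycomb group partner of Pho, by 0.71 ± 0.10. The exceptions were Nurf-38, of a nucleosome remodelling factor (-0.48), and esc, a core subunit of the H3K27 methyltransferase, at 5.40, 5.63 and 4.95 on ap_GFP and 6.98, 7.01 and 7.19 on twi_actin_GFP (-1.74 ± 0.24, adjusted p = 0.00109). Among other chromatin genes the H4K20 methyltransferase gene Set8 rose by 1.34 ± 0.13 and the H3K79 methyltransferase gene gpp by 0.85 ± 0.11, and the histone chaperone gene Ssrp fell by 1.33 (adjusted p = 0.000133, 0.000727 and 5.26e-05).

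Most genes of protein synthesis and respiration were not called. Of 35 cytoplasmic ribosomal protein genes 3 rose and 3 fell (8.57% each), with a median of 0.01, and of 33 proteasome genes 0 rose and 2 fell (6.06%). Translation factors had 5 of 42 higher (11.9%) and none lower, close to the share over all genes for increases. Among them eIF2D, a non-canonical initiation factor, stood at 9.56, 9.48 and 9.37 on ap_GFP and at 8.11, 8.02 and 7.95 on twi_actin_GFP (1.44 ± 0.14, adjusted p = 0.000154). Of 58 mitochondrial ribosomal genes 2 rose and 14 fell (3.45% and 24.1%, median -0.23), the largest decrease being -0.63 (mRpL35). Of 60 respiratory complex genes 4 rose and 14 fell (6.67% and 23.3%, median -0.17), against 10.9% and 16.3% over all genes. Without ap_GFP replicate 3 alone 9 of the mitochondrial ribosomal and 5 of the respiratory genes fell. Without both divergent arrays 19 mitochondrial ribosomal genes fell and 4 rose, and 17 respiratory genes fell and 7 rose. PheRS-m, the mitochondrial phenylalanine tRNA synthetase, stood out from its list with 12.16, 12.24 and 12.31 on ap_GFP and 10.67, 10.28 and 10.11 on twi_actin_GFP (1.88 ± 0.15, adjusted p = 4.72e-05).

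Cell death genes went both ways. The pro-apoptotic genes grim and skl, which unleash caspases, rose by 1.52 ± 0.26 and 1.01 ± 0.15 (adjusted p = 0.00319 and 0.00144). The Bcl-2 family genes Debcl and Buffy fell by 2.59 and 1.03 (adjusted p = 6.94e-05 and 0.000483), Buffy to below the array medians, and the caspase gene Dredd fell 2-fold (adjusted p = 0.00147). Of the 16 measured, 2 rose and 4 fell (12.5% and 25.0%, against 10.9% and 16.3% over all genes).

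Several of the largest increases belong to no list above. Arc1, a capsid-like protein known at synapses, stood at 12.25, 12.06 and 12.00 on ap_GFP and at 9.74, 9.18 and 9.53 on twi_actin_GFP (2.62 ± 0.15, adjusted p = 8.35e-06). The ubiquitin ligase gene gol rose by 2.73 ± 0.37, the amino acid transporter gene JhI-21 by 2.75 ± 0.22, Rab32, a GTPase of lysosome-related organelles, by 2.74 ± 0.29 and the Gli-like factor gene sug by 2.71 ± 0.20. In gol, Rab32 and sug twi_actin_GFP replicate 1 was the highest array of its group. The neuropeptide gene CCAP stood at 7.37, 7.12 and 7.61 on ap_GFP and at 4.97, 4.83 and 4.90 on twi_actin_GFP (2.47 ± 0.13, adjusted p = 7.02e-06). The anion exchanger gene Ae2 rose by 2.32 ± 0.12 and the dual oxidase gene Duox by 2.40 ± 0.35. For jhamt, a juvenile hormone methyltransferase, and bol, an RNA-binding protein of male meiosis, the increases of 2.54 and 2.41 carried the wide errors 0.70 and 0.59 (adjusted p = 0.0311 and 0.0194). Both calls ended when any compared array but ap_GFP replicate 3 was left out (adjusted p = 0.0576 to 0.105).

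Genes known by number only made up 4578 of those measured, with 384 higher (8.39%) and 639 lower. CG7607 had the largest increase of any named gene, at 9.95, 9.87 and 9.55 on ap_GFP and 5.82, 5.10 and 5.31 on twi_actin_GFP (20.8-fold, adjusted p = 5.58e-05). CG14490 and CG13833 rose by 3.76 ± 0.72 and 2.98 ± 0.23, CG14490 with ap_GFP replicate 3 at 7.97 against 9.76 and 9.58 on the other ap_GFP arrays. CG6733 fell to 4.89, 5.20 and 5.85 on ap_GFP, against 12.49, 11.76 and 12.00 on twi_actin_GFP (109-fold, adjusted p = 7e-06). CG15818 fell by at least 31.2-fold and CG2736 by 27.8-fold.

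Some changed genes lie side by side in the RefSeq gene order. The longest runs of neighbouring measured genes called in 1 direction had 6 members. In 1 of them NimB1, NimB2, NimB3, NimB4 and NimB5, genes of the Nimrod family of blood cell proteins, and their neighbour Cyp28a5 all fell, by 1.41 to 4.10. Another, from bero to RPA2, takes in Mtp. The run of increases with the most members had 5, from Nf1 to the Notch target genes E(spl)mdelta-HLH, E(spl)malpha-BFM and E(spl)m2-BFM (0.67 to 2.19), and the tetraspanin genes Tsp42Ei, Tsp42Ej, Tsp42Ek and Tsp42El formed a run of 4 that fell. How often such runs occur among genes in random order was not computed.

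Odorant and gustatory receptors mostly lay low on the arrays, while cuticle and Osiris genes did so less often. Of 151 odorant and gustatory receptor genes 144 had means below the array medians in both groups, and 6 rose (3.97%) and 0 fell, by limma at an adjusted p below 0.05. Over all genes 10.9% were higher and 16.3% lower. Of 97 cuticle protein genes 51 lay below the medians in both groups, and 2 rose and 5 fell (2.06% and 5.15%). Of 22 Osiris genes, a family of secreted or membrane proteins of the insect cuticle, 10 lay below the medians in both groups, and 2 rose and 3 fell (9.09% and 13.6%). Osi15 stood at 7.78, 7.57 and 8.16 on ap_GFP and at 11.12, 10.62 and 10.74 on twi_actin_GFP (-2.99 ± 0.38, adjusted p = 0.000573).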

How the data were processed

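Transcripts were measured on 9 Affymetrix Drosophila Genome 2.0 arrays, 3 per reporter, from total RNA of sorted cells. The deposited values are log2 signals per probe set, made by the authors with RMA in Partek, per the submitters' processing notes; RMA corrects background, normalizes between arrays and summarises probes, which compresses differences of dim probe sets. The version and options of each tool are not given in the sources used here. Values ran from 2.28 to 14.64 and were used without further normalization or filter.

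All 9 arrays entered 1 model of 3 group means in limma 3.58.1 (lmFit, eBayes; R 4.3.3), with the contrasts ap_GFP minus twi_actin_GFP and ap_GFP minus slou_RFP and Benjamini-Hochberg adjustment over 16377 probe sets. The fit was tested on simulated arrays. Groups came from sample titles. Of the probe sets 11899 carried 1 gene in the platform annotation, 353 several and 4125 none; 912 genes had several probe sets, called in opposite directions for 8. RefSeq (Release 6 plus ISO1 MT) gave neighbours.

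The comparison, the members and the gene lists were chosen with earlier results of these data known. Named genes are ap, slou and twi, the 20 largest increases and 20 largest decreases among called named genes outside the fusion list with groups that do not overlap, the 5 largest each way among numbered genes, and of each list the 6 members with the smallest adjusted p, or all members where 12 or fewer were measured. Further genes were chosen after their values were seen: EMRE, GluRIIA, GluRIIB, GluRIID, GluRIIE, nAChRbeta1, Mlp60A, Mp20, gsb-n, btd, tsh, eya, dpp, daw, gbb, hh, Pvr, S, drk, Col4a1, SPARC, LanB1, LanB2, hoka, Ssk, Tsp2A, Tsp86D, Tsp96F, Arpc3A, OstDelta, Pepck2, Npc2a, ref(2)P, Atg2, Atg7, mRpL35, Utx, NimB2 to NimB5 and members of neighbour runs. Alternatives were quantile normalization, median centring, only the compared arrays, array weights, trend and robust estimation, a filter on dim probe sets, the mean over a gene's probe sets, a replicate block, the submitters' threshold and omission of arrays.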

Additional observations from a re-analysis of the deposited data

How the results depend on the processing

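Against 1601 probe sets higher and 1992 lower, 3299 were higher and 2729 lower with array weights, 3272 and 2696 with ap_GFP replicate 3 and slou_RFP replicate 2 both left out (3544 shared with the 3593 calls), and 766 and 1552 by the submitters' threshold. Leaving out 1 array at a time gave 965 to 2934 higher and 1522 to 2528 lower; the higher count was 1054 without ap_GFP replicate 1, 969 without twi_actin_GFP replicate 2, 965 without twi_actin_GFP replicate 3 and 2934 (2528 lower) without slou_RFP replicate 2. Increases outnumbered decreases under 5 settings: array weights, both divergent arrays left out, slou_RFP replicate 2 left out, quantile normalization (2062 higher, 1846 lower) and the 6 compared arrays alone (2356 and 2265). Between ap_GFP and slou_RFP 11 probe sets passed the submitters' threshold, against 0. Of 461 named genes 418 were called, 332 of them under every setting, and none reversed. Replicate numbers did not pair the samples: deviations of same-numbered ap_GFP and twi_actin_GFP arrays correlated at 0.118, -0.042 and 0.065, and a replicate block gave 1329 higher and 1822 lower. The causes were not tested. The 3 arrays a group and the lack of detection calls limit what can be said of dim genes.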

Other observations

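Of the 4478 probe sets that carry no gene or several genes in the platform annotation, 315 were higher and 189 lower on ap_GFP than on twi_actin_GFP by limma at an adjusted p below 0.05. Both are smaller shares than those over all probe sets, 9.78% higher and 12.2% lower. They are not named here and entered no gene list.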
